A study of Irpex lacteus with 14 samples.

Results

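The genes described here are those of the white-rot fungus Irpex lacteus whose transcript level differed by less than 2-fold between any of 5 growth substrates. They were chosen from their measured values. A gene was kept when its normalized log2 read count reached 3.32, about 10 reads, on at least 2 substrates. It was a level gene when the highest minus the lowest of its 5 values was under 1 on the log2 scale and none of 3 patterns reached 0.5. The patterns were maltose and cellulose both above the 3 plant materials, cellulose and wheat straw both above the other 3 substrates, and aspen and pine both above the other 3. The rule gave 257 level genes among 967 kept genes (26.6%) and 977 different genes in the table. Counts, medians and ranges below therefore describe a selection, and the small size of the differences is not a finding.

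The libraries came from mycelium of strain CCBAS Fr. 238 617/93 grown in shaken flasks of 100 ml at 30 °C and harvested on day 3, with 3 libraries each for cellulose, wheat straw, aspen and maltose and 2 for pine. Cellulose was given as Avicel, a microcrystalline powder, and wheat straw and pine as ground fragments under 2 mm, each at 15 g per litre in a medium with 2.5 g of maltose per litre. Aspen was milled to 1 mm and also given at 15 g per litre. Its maltose concentration cannot be read from the label. The maltose cultures held 20 g of that sugar per litre and no solid, so free sugar and solid changed together. All media shared ammonium tartrate, mineral salts, yeast extract and thiamin. The deposited table held 1 value per gene and substrate, so no spread between libraries, interval or test accompanies any value, and the depth of the libraries is unknown. A range under 2-fold is a statement about these deposited values and does not show that a transcript was equal between substrates.

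White-rot fungi decay wood by secreting peroxidases, laccases and carbohydrate-active enzymes, whose genes commonly respond to the carbon source. Other genes serve growth on any substrate, such as those for ribosomes, the cytoskeleton, protein turnover and central metabolism, and steady transcripts among them are often used as references for quantitative PCR. The table gives each gene as a number of the MycoCosm genome portal. No annotation was used here, so no level gene can be given a name, a role, a genome position or a sequence, and membership of either class of gene was not examined.

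Transcripts with the least variation occurred over a broad span of abundance. A range under 0.5, or 1.41-fold, was found for 45 level genes (4.65% of all kept genes), and 7 of them had a range under 0.25 (0.724%). Any kept gene with a range under 0.5 meets the rule. These percentages therefore count the same 45 and 7 genes over the 967 kept genes and are no separate background. Gene 1593408 had the smallest range in the table, 0.09 or 1.07-fold. Its normalized log2 read count came to 6.18 on cellulose, 6.21 on wheat straw, 6.27 on aspen, 6.27 on pine and 6.27 on maltose. The small remainder put cellulose lowest.

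Gene 1106622 came second, with 7.64 on cellulose, 7.73 on wheat straw, 7.77 on aspen, 7.63 on pine and 7.78 on maltose. Gene 1110798 had 8.34 on cellulose, 8.26 on wheat straw, 8.29 on aspen, 8.29 on pine and 8.47 on maltose. In these moderately expressed genes the highest value was on maltose, by 0.14 and 0.21 above the lowest substrate. A further pair had mean levels between 12.9 and 20.1 times those of these genes on the linear scale. Gene 1279154 had 12.10 on cellulose, 11.92 on wheat straw, 12.01 on aspen, 12.10 on pine and 11.94 on maltose, and gene 494381 had 11.97, 12.14, 11.95, 12.06 and 12.09 in the same order of substrates. Wheat straw was the lowest substrate for gene 1279154 and the highest for gene 494381, so the steadiest genes had no common order.

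**Figure D1:**
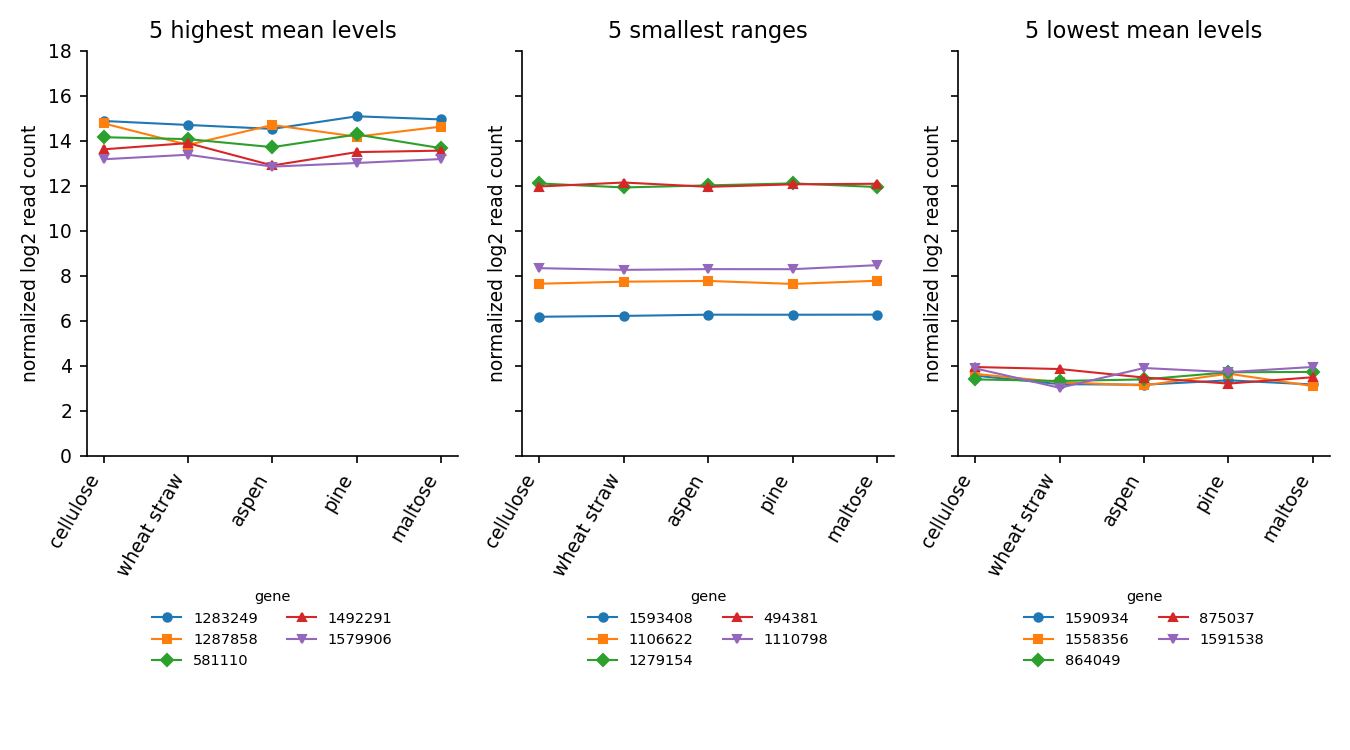
Normalized log2 read count on each substrate for the 5 level genes with the highest mean level (left), the 5 with the smallest range (centre) and the 5 with the lowest mean level (right), with thin lines joining the values of 1 gene. All panels share 1 axis; the 5 genes with the smallest range stay nearly flat at levels between 6.18 and 12.14.

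At the top of the abundance scale, 2 level genes were among the 10 most abundant kept genes on each of cellulose, aspen and maltose. Wheat straw had 1 and pine 0. Among the 100 most abundant kept genes, between 14 (pine) and 23 (cellulose) were level (background of all kept genes 26.6%). Gene 1283249 was the most abundant level gene, with a mean of 14.83, which corresponds to 29081 normalized reads. It had 14.88 on cellulose, 14.70 on wheat straw, 14.53 on aspen, 15.09 on pine and 14.95 on maltose. Pine was highest and aspen lowest, a range of 0.56 or 1.47-fold.

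Gene 1287858 followed with 14.77 on cellulose, 13.82 on wheat straw, 14.70 on aspen, 14.18 on pine and 14.63 on maltose. Its range of 0.96 lay close to the limit, with wheat straw and pine below the other 3 substrates. Gene 581110 had 14.16 on cellulose, 14.07 on wheat straw, 13.71 on aspen, 14.28 on pine and 13.67 on maltose. Here aspen and maltose were the low substrates. Gene 1492291 had 13.62 on cellulose, 13.90 on wheat straw, 12.90 on aspen, 13.49 on pine and 13.56 on maltose, and gene 1579906 had 13.18, 13.38, 12.85, 13.01 and 13.19. Both of these were highest on wheat straw and lowest on aspen. Gene 1492291 was also the level gene whose aspen value lay farthest below its other values, by 0.74.

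Near the filter on low values, 7 of the 36 kept genes with a mean under 4 were level (19.4%, against 26.6% of all kept genes). The share was also low at the other end, with 2 of 14 genes (14.3%) at a mean of 14 or more. These counts are small, and nothing is read from the difference. At least 1 value under the filter of 3.32 was found in 5 of the 257 level genes. Gene 1590934 had the lowest mean, 3.28 or 9.72 normalized reads, with 3.56 on cellulose, 3.18 on wheat straw, 3.15 on aspen, 3.35 on pine and 3.16 on maltose. Gene 1558356 had 3.64 on cellulose, 3.26 on wheat straw, 3.12 on aspen, 3.65 on pine and 3.09 on maltose. Cellulose and pine were the high substrates in both. Gene 864049 had 3.39 on cellulose, 3.32 on wheat straw, 3.39 on aspen, 3.71 on pine and 3.72 on maltose. Gene 875037 had 3.94, 3.85, 3.47, 3.20 and 3.49 in that order. Gene 1591538 had 3.88, 3.02, 3.90, 3.71 and 3.94, so that wheat straw stood alone below the others, by 0.84 from their mean. On the linear scale the values of gene 1591538 lay between 8.09 and 15.4 normalized reads.

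Abundance as such did little to separate level genes from the rest. The mean level over the 5 substrates had a median of 8.70 in level genes (quartiles 6.78 and 10.31) and 8.61 in the 710 other kept genes (quartiles 6.57 and 10.51). This difference of 0.10 is small beside the quartiles, and its sign turned under 6 of the 15 alternatives, among them a filter of 5 in every substrate (-0.26). When the kept genes were divided into 5 classes of equal size by mean level, the share of level genes was 22.2% in the least abundant class, then 30.1%, 27.5%, 28.0%, and 25.3% in the most abundant. The median range of level genes was between 0.69 and 0.76 in each class. Genes with ranges between 1 and 2 (396 genes) had a median level of 8.33, and those with ranges of 2 or more (312 genes) had 8.88.

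**Figure D2:**
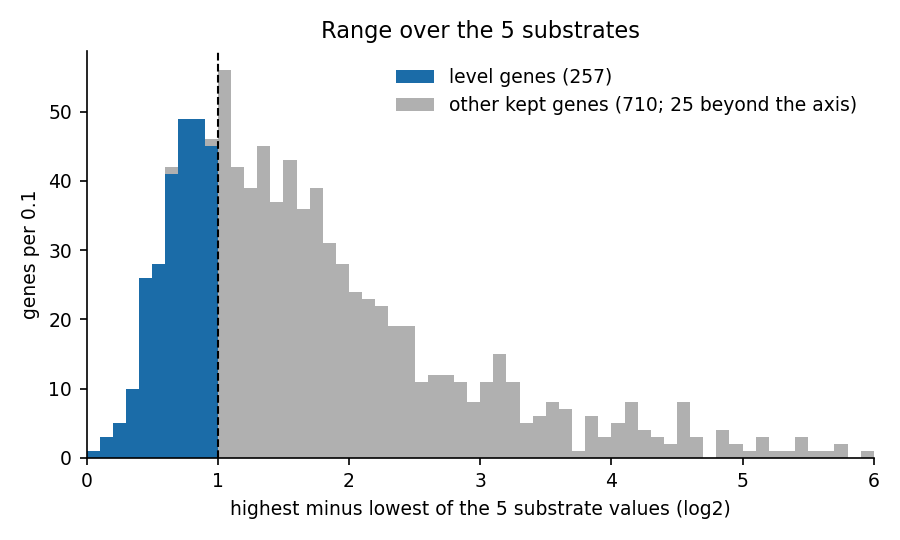
Number of kept genes by the highest minus the lowest of the 5 substrate values (log2), in steps of 0.1, with level genes in blue, other genes in grey and the limit of 1 as a dashed line. The counts run without a gap through the limit, where 46 genes lay between 0.9 and 1 and 56 between 1 and 1.1.

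No gap separated level genes from the rest. The median range was 0.74 in level genes, or 1.67-fold, and 1.85 in the other kept genes, or 3.61-fold, as the rule requires. Of the 257 genes, 122 had a range between 0.75 and 1, and a further 119 kept genes had one between 1 and 1.25. Just inside the limit was gene 1281811, with a range of 0.999: it had 7.97 on cellulose, 7.44 on wheat straw, 7.56 on aspen, 8.28 on pine and 7.28 on maltose. Gene 1280259, with a range of 0.995, had 8.39 on cellulose, 9.39 on wheat straw, 8.66 on aspen, 8.55 on pine and 8.58 on maltose. These genes differ in form, since the values of the first were spread out and those of the second had wheat straw alone above the others.

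Just outside the limit were genes 1228741, 1292706 and 1054945, with ranges of 1.001, 1.002 and 1.003. Gene 1228741 had 3.43 on cellulose, 3.88 on wheat straw, 4.23 on aspen, 4.43 on pine and 4.39 on maltose. Gene 1292706 had 5.01, 6.02, 5.43, 5.56 and 5.26, and gene 1054945 had 6.79, 6.89, 7.55, 7.79 and 6.91 in that order. Their ranges differed from those just inside the limit in the third decimal. Gene 1054945 also passed a pattern limit, since its aspen and pine values lay at least 0.64 above the other 3.

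The 3 pattern limits removed only 2 of the 259 genes with a range under 1. Both had maltose and cellulose above the plant materials. Gene 1071904 had 6.16 on cellulose, 5.59 on wheat straw, 5.59 on aspen, 5.50 on pine and 6.13 on maltose, a separation of 0.54. Gene 1026284, named after its values were seen, had 3.69, 2.73, 3.12, 3.07 and 3.68, a separation of 0.56. The closest level gene, 1462931, had 4.74 on cellulose, 4.10 on wheat straw, 4.17 on aspen, 4.24 on pine and 4.80 on maltose, a separation just under 0.5. Gene 1293470 came closest to the pattern of the woods, with 9.35 on aspen and 9.55 on pine against 8.70 on cellulose, 8.80 on wheat straw and 8.85 on maltose. Gene 1491718 came closest to the pattern of cellulose and straw, with 11.93 on cellulose and 12.01 on wheat straw against 11.45 on aspen, 11.45 on pine and 11.50 on maltose.

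Small differences that remained among level genes were spread over all substrates. Pine held the highest value of 84 level genes (background of all kept genes 33.7%), wheat straw of 57 (background 21.7%), maltose of 56 (background 18.4%), cellulose of 35 (background 13.8%) and aspen of 25 (background 12.4%). As shares of the 257 these were 32.7%, 22.2%, 21.8%, 13.6% and 9.73%. Each differed from its background, which includes the level genes themselves, by at most 3.38 percentage points. The lowest values were placed otherwise. Aspen held the lowest value of 72 level genes, or 28.0% (background 15.6%), and pine of 40, or 15.6% (background 9.51%). Maltose held it for 53, or 20.6% (background 29.3%), wheat straw for 51, or 19.8% (background 30.1%), and cellulose for 41, or 16.0% (background 15.5%). The most frequent combination was pine highest with aspen lowest, in 28 level genes or 10.9% (background 7.86%), followed by pine highest with maltose lowest in 23 or 8.95% (background 11.9%).

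The rule used these same contrasts, and the order depended on the scaling of the columns. With the columns rescaled by the median deviation of genes from their own mean (median-ratio scaling), maltose held the highest value of 71 of the then 262 level genes and pine of 59. With centring on the column medians maltose held 83 of 222 and pine 50, and with quantile normalization 104 of 261 and 65. Aspen held the most lowest values under each of these, with 68, 102 and 82 genes. The next substrate was pine with 66, pine with 43 and wheat straw with 75, so the lead was narrow except with centring. Shares over all kept genes under these scalings are not given here.

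The substrate that stood apart differed from one level gene to another. Gene 1597211 had 7.39 on wheat straw against 6.45 on cellulose, 6.46 on aspen, 6.52 on pine and 6.43 on maltose, which put straw 0.92 above the mean of the others. Gene 119380 had 11.05 on pine against 10.34 on aspen, 10.15 on cellulose, 10.13 on wheat straw and 10.15 on maltose, 0.86 above. Single-substrate offsets of this size fall just under 2-fold and are among the largest of the set.

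Gene 1640588 was highest on aspen, with 9.91 against 9.32 on cellulose, 9.30 on wheat straw, 8.92 on pine and 9.09 on maltose. Gene 1554110 was the gene farthest above on cellulose, with 4.21, but its pine value of 4.20 was nearly as high, against 3.31 on wheat straw, 3.44 on aspen and 3.45 on maltose. Cellulose thus had no level gene in which it stood apart upward by more than 0.61 from the mean of the others.

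In the downward direction, gene 1672000 had 5.82 on cellulose against 6.66 on wheat straw, 6.52 on aspen, 6.76 on pine and 6.21 on maltose. Gene 1599495 had 9.23 on pine against 9.72 on aspen, 10.18 on cellulose, 9.85 on wheat straw and 10.03 on maltose. Maltose was farthest below in gene 1599548, where cellulose had 7.68, wheat straw 7.95, aspen 7.38 and pine 7.89 against 6.98 on maltose. It was farthest above in gene 1507045, where cellulose had 9.32, wheat straw 9.56, aspen 9.21 and pine 9.84 against 10.20 on maltose. The largest offsets from the mean of the other 4 values were between 0.61 and 0.92 in size in all 5 substrates and both directions. These offsets too depend on the scaling. Genes 1597211, 1640588, 1599495, 1507045 and 1492291 passed the range limit under each of the 3 scalings, and gene 1591538 under centring and median-ratio scaling. Genes 119380, 1554110, 1672000 and 1599548 stayed level under all 3.

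**Figure D3:**
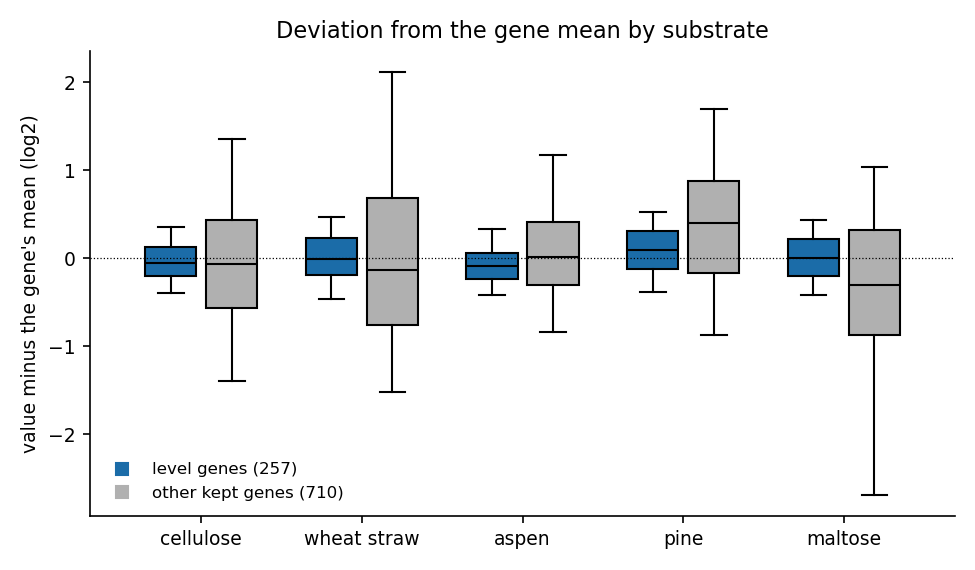
Deviation of each gene's value from its own mean over the 5 substrates (log2), with level genes in blue left of the other kept genes in grey. Boxes show quartiles, lines in them medians and whiskers the 5th and 95th percentiles; the medians of level genes lie between -0.09 on aspen and 0.10 on pine, while those of the other genes lie between -0.31 on maltose and 0.39 on pine.

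In the deposited values, from which they were chosen, the level genes showed less of the offset between columns than the other kept genes. Among level genes, the column medians were 8.63 for cellulose, 8.77 for wheat straw, 8.64 for aspen, 8.71 for pine and 8.64 for maltose. Over all kept genes they were 8.52, 8.61, 8.74, 8.89 and 8.22 in that order. Gene by gene, the median of substrate minus maltose in level genes was -0.06 for cellulose, 0.03 for wheat straw, -0.10 for aspen and 0.11 for pine, and in the other kept genes it was 0.09, 0.17, 0.26 and 0.81. These 4 differences share the maltose value. The deviation from the gene mean had an SD across level genes of 0.23 on cellulose, 0.29 on wheat straw, 0.23 on aspen, 0.29 on pine and 0.27 on maltose, and across the other genes of 0.88, 1.12, 0.67, 0.82 and 1.22. Maltose was thus the most scattered substrate in the other genes and only the third in level genes. Since a gene with a large offset on any substrate could not be a level gene, these contrasts follow in part from the choice of genes. They also depend on the scaling. The median deviation of the level genes on maltose was 0.01 as deposited. For the same genes it was 0.16 after median-ratio scaling, 0.38 after centring and 0.36 after quantile normalization.

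Differences of 1.5-fold or more occurred among level genes on every substrate, in both directions. Against maltose, pine was at least 1.5-fold higher in 38 level genes (background 44.8%) and lower in 26 (background 16.5%). Wheat straw was higher in 31 (background 33.8%) and lower in 30 (background 29.4%). Aspen was higher in 10 (background 29.8%) and lower in 20 (background 15.9%), and cellulose was higher in 18 (background 21.4%) and lower in 16 (background 11.5%). Against pine, aspen was higher in 9 (background 15.4%) and lower in 46 (background 33.7%), the most unequal of these splits. These splits depend on the scaling of the columns. The median deviation of the level genes from their own mean was -0.09 on aspen and 0.10 on pine as deposited. For the same genes it was -0.06 and -0.17 after median-ratio scaling. The backgrounds hold genes of any range, whereas the rule capped these differences, so nothing is read from the lower counts. Aspen and cellulose were the closest pair by the median absolute difference of level genes, at 0.22, and pine and maltose the farthest, at 0.36. Maltose was nearly as close to cellulose and to aspen, at 0.25 each. Over all kept genes the closest pair was cellulose and maltose, at 0.39, and the farthest wheat straw and maltose, at 0.84.

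**Figure D4:**
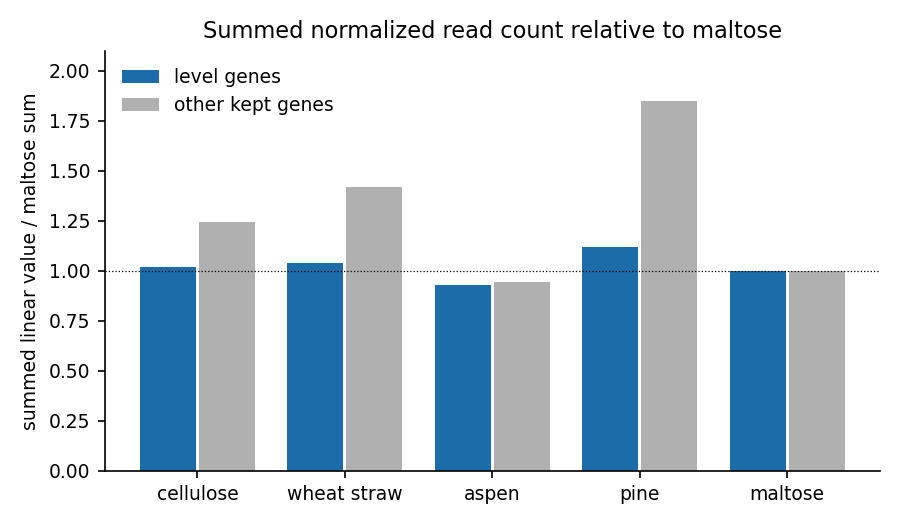
Sum of the linear normalized read counts on each substrate divided by the sum on maltose, for level genes (blue) and the other kept genes (grey). Level genes stay between 0.93 on aspen and 1.12 on pine, while the other genes reach 1.85 on pine.

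The summed counts of level genes varied less than those of the rest of the table, which the limit on each gene fixes in part. On the linear scale their sum relative to that on maltose was 1.02 for cellulose, 1.04 for wheat straw, 0.93 for aspen and 1.12 for pine. For the other kept genes the ratios were 1.24, 1.42, 0.94 and 1.85 in that order. The level genes held 19.3% of the summed counts on cellulose, 17.6% on wheat straw, 22.3% on aspen, 15.0% on pine and 22.6% on maltose. Without genes 1283249 and 1287858 these shares were 16.6%, 15.9%, 19.4%, 13.2% and 19.5%, in the same order of substrates. The sums and shares depend on the scaling of the columns, and the table may not represent the whole transcriptome.

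Level genes also changed places in the order of abundance. Among the 967 kept genes, the place of a level gene by abundance differed by a median of 89 places between substrates. In the other kept genes the median was 179.5. The smaller span follows in part from the limit on the range of each level gene. A place also depends on how the other genes moved, so a span does not measure a change of the gene itself. Gene 1287858 was number 8 on cellulose, 29 on wheat straw, 2 on aspen, 32 on pine and 7 on maltose. Gene 1593408, the steadiest by value, still covered 55 places, and gene 1110798 covered 103. Gene 1283249 had the smallest span of any level gene, 10 places, between 3 on aspen and 13 on pine.

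**Figure D5:**
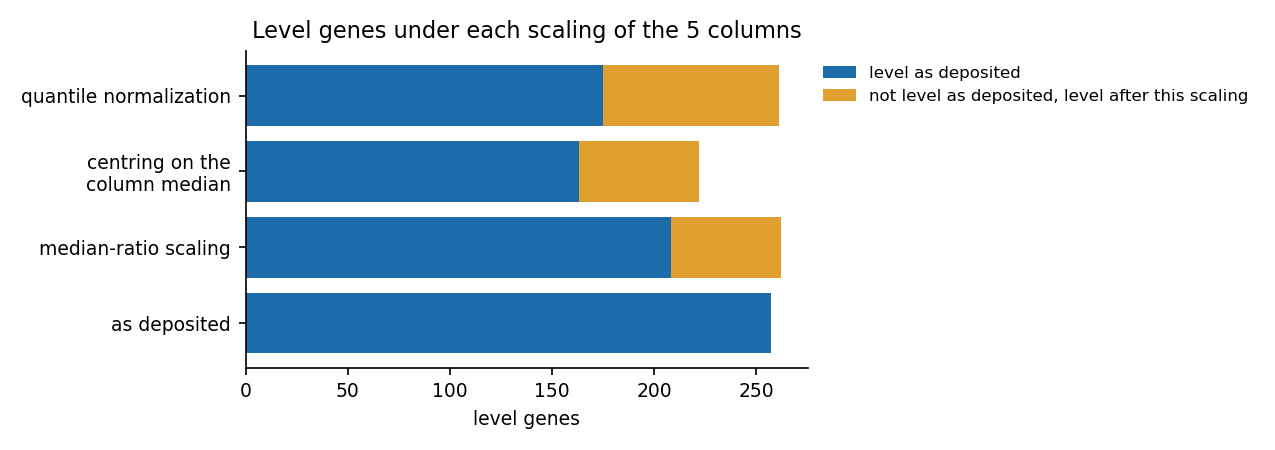
Number of level genes under each scaling of the 5 columns, with genes that were level as deposited in blue and genes that became level after that scaling in orange. The totals lie between 222 and 262, but between 163 and 208 of the 257 deposited level genes remained.

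Which genes were level depended on how the columns were scaled, more than how many were. Median-ratio scaling left 208 of the 257 genes level and added 54, quantile normalization left 175 and added 86, and centring on column medians left 163 and added 59. A core of 148 genes (57.6%) was level as deposited and under all 3 scalings. The 5 genes with the smallest ranges belonged to it, with ranges of up to 0.84 after scaling. Median-ratio scaling and centring shifted whole columns against each other by at most 0.42 and 0.67. Genes with ranges this small therefore could not reach the range limit under either of these. Among the 5 most abundant, genes 1283249 and 581110 belonged to it, whereas genes 1287858, 1492291 and 1579906 passed the limit under at least 1 scaling. For gene 1287858 the range reached 2.29 under quantile normalization. Of the 5 least abundant, genes 1590934, 1558356 and 864049 belonged to the core and genes 875037 and 1591538 did not. The core held 39 of the 45 genes with a deposited range under 0.5. Median-ratio scaling could not take any of these past the range limit.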

How the data were processed

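Messenger RNA of 14 cultures was sequenced as paired ends from polyadenylated RNA, per the labels' protocols. Per the file headers, the values that the authors deposited are log2 read counts after normalization, with 1 column for each substrate. The submitters' processing notes list TopHat2, HTSeq and DESeq (version 1.5) without roles or settings. Not given in the sources used here are the genome build, the scaling, any value added before the logarithm, and the way libraries were combined. The table had 1000 rows, of which 23 repeated another row exactly and were dropped, and 10 genes did not pass the filter. All values were computed with Python 3.11.15, numpy 2.4.6 and pandas 2.3.3. Simulated data served only to check that the code applies the rule as written. How reliable the calls of level genes are near the limits was not tested. The members, lists and alternatives were chosen with earlier results of these data known.

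Median-ratio scaling subtracted from each column the median over kept genes of its deviation from the gene mean. Centring subtracted column medians, and quantile normalization gave the columns 1 distribution. Other alternatives changed the filter, added 8 to the linear values, changed the limits or left out a substrate. Named genes were the 5 level genes each with the smallest range, highest mean and lowest mean, the gene farthest above and below on each substrate, and those nearest the limits, which gave 32 different genes, 28 of them level. No test was run, since the values chose the genes and had no replicates.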

Additional observations from a re-analysis of the deposited data

How the results depend on the processing

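No paired analysis was possible because the table holds 1 value per substrate, and leaving out single libraries could not be run for the same reason. The number of level genes stayed within 1.5 times of 257 under 13 of 15 alternatives. It was 70 with a limit of 1.5-fold and 462 with a range limit of 1.5. The number with a range under 0.5 (45) was 20 with centring, and 111, 72, 121 and 79 without wheat straw, aspen, pine and maltose, where fewer values enter the range. The number highest on pine (84) was 50 with centring, 19 with the 1.5-fold limit, 168 with the range limit of 1.5 and 146 without wheat straw. The number lowest on maltose (53) was 14 with quantile normalization, 10 with centring, 11 with the 1.5-fold limit, 90 with the range limit of 1.5, and 81 and 82 without wheat straw and pine. The median level of level genes minus that of other genes (0.10) turned negative with the filter of 5 in all substrates (-0.26), 8 added (-0.82), the 1.5-fold limit (-0.12), the range limit of 1.5 (-0.18), and without wheat straw (-0.54) or maltose (-0.21). It was 0.34 with quantile normalization, 0.48 with centring, 0.038 without the pattern limits, 0.26 with a pattern limit of 0.25, 0.011 without cellulose and 0.53 without pine. Adding 8 draws low values together by construction; for the other changes the cause was not tested. Depth and replicate spread are unknown, so ranges near 10 reads cannot be weighed against counting error.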

Other observations

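A group of 31 genes was not level as deposited but was level under each of median-ratio scaling, centring and quantile normalization. Of these, 29 had their highest deposited value on pine (background of all kept genes 33.7%). The choice of the group favours such genes, since median-ratio scaling and centring lowered pine relative to every other column. The following genes were chosen after their values were seen. Gene 992704 had 8.69 on cellulose, 8.76 on wheat straw, 8.66 on aspen, 9.20 on pine and 8.19 on maltose. Its range was 1.00 as deposited, just past the limit, and 0.59 after median-ratio scaling, the smallest of the group. Gene 1287810, an abundant transcript, had 12.38, 12.98, 12.35, 13.28 and 12.19 in that order, with ranges of 1.08 and 0.67. Gene 1016078 had 10.54 on pine and between 9.50 and 9.60 on the other substrates, with ranges of 1.04 and 0.72. Pine was the only column that median-ratio scaling lowered, by 0.26, or by 0.42 relative to maltose, and it stands for 2 libraries. Which scaling suits these columns was not tested.

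Gene 14026, chosen after its values were seen, had the widest span of places of any level gene: it was number 501 on cellulose, 564 on wheat straw, 573 on aspen, 623 on pine and 420 on maltose. Its log2 values were 8.35, 8.04, 8.11, 7.83 and 8.67 in the same order.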
